A study of Mus musculus with 6 samples.

Results

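Interferon response and antigen presentation genes were examined in whole liver of Pfn2-/- mice, which lack profilin 2, an actin-binding protein, and of wild-type mice. The set held 49 listed genes, chosen by name with earlier results of these data known. Counts set against all genes therefore describe the set and do not test it. Of these 49, 42 were measured, out of 22180 genes in all, since a gene was kept only where a row of the array table named it alone, and the row of highest mean over all arrays was then used. Oas1a, Ifi47, Gbp2, H2-D1, H2-Q7 and Cd74 lay only in rows naming several genes, and Ifi44 was not analysed here. The series comprised 6 Affymetrix arrays of C57BL/6 liver, 3 biological replicates per genotype, aged 9, 8.5 and 8 months in either genotype (replicates 1, 2 and 3). Neither the sex of the animals nor the way Pfn2 was inactivated is given in the sources used here, and no treatment is listed. Values are RMA log2 expression, and every difference is Pfn2-/- minus wild type on that scale, with its standard error (SE) from limma and n = 3 arrays per group. A row measures each gene against itself in other arrays, so levels of different genes are not compared.

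Interferons are secreted alarm proteins of the antiviral defence. Type I interferons act through the receptor of Ifnar1 and Ifnar2 and transcription factors that include STAT2 and IRF9, which bind a DNA element called the ISRE in genes such as Isg15, Mx1 and the Oas and Ifit families. Interferon gamma, made by T and NK cells, acts through Ifngr1 and Ifngr2 on genes with the GAS element, and it induces the guanylate-binding proteins (Gbp), the immunity-related GTPases (Igtp, Irgm1, Irgm2, Iigp1) and the chemokine Cxcl9. Antigens from the cytosol are cut by the immunoproteasome (Psmb8, Psmb9, Psmb10), carried by Tap1 and Tap2 and shown on MHC class I molecules with B2m on nearly all cells. MHC class II molecules are carried mainly by dendritic cells, B cells and macrophages, which in liver include the Kupffer cells, and their genes need the coactivator Ciita and promoter elements such as the Y box.

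Arrays had medians of 4.36 to 4.41, and their number limits the precision. The row of the targeted gene, Pfn2, was dim and lay at 4.02, 3.85 and 4.09 in wild-type liver against 3.88, 3.81 and 3.93 in Pfn2-/- animals, so it does not check the genotype labels. Liver identity was clear from the hepatocyte markers, of which Alb lay at 12.93 to 13.00 on every array. No gene of the 22180 passed an adjusted p of 0.05 by limma with Benjamini-Hochberg adjustment (0% called), while 1174 had an unadjusted p under 0.05 (5.29%). Pfn2-/- replicates 1 and 3 stood apart in the acute-phase genes Saa2 (10.83 and 12.22, against 6.76 to 7.80 on the other 4 arrays) and Orm2 (9.58 and 10.09, against 6.44 to 7.42). Their part in the differences was not tested. Pfn2-/- replicate 3 alone was high in the heat shock gene Hspa1b (8.65, against 5.51 to 6.38 on the other 5 arrays).

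The promoters show which elements the groups carry and are given for genes on which the comparison turns. RefSeq promoter sequences (GRCm38.p6) were found for 37 of the 49 genes, and the 250 bases before each start were searched on both strands for the ISRE as GAAA, NN and GAAA in a row, the GAS as TTCNNNGAA and the Y box as CCAAT. The last 120 bases before the start are printed 5′ to 3′ on the gene's strand, with matches in capitals (ISRE, and in Igtp and Irgm2 also GAS, in the first 4, and Y box in the last 2). Gbp3 has a further start in the table, without a match. The windows are Igtp at chr11:58199436-58199555 (+), Irgm2 at chr11:58214857-58214976 (+), Gbp3 at chr3:142559924-142560043 (+), Isg15 at chr4:156200819-156200938 (-), H2-Aa at chr17:34287824-34287943 (-) and H2-Eb1 at chr17:34305747-34305866 (+).
Igtp: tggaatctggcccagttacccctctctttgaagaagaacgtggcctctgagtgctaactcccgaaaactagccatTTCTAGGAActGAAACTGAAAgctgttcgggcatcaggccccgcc
Irgm2: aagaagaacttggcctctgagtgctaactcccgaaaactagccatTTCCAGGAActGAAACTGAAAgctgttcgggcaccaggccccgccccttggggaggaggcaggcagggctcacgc
Gbp3: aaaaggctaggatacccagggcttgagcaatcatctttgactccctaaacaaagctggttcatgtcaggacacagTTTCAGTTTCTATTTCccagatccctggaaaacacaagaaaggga
Isg15: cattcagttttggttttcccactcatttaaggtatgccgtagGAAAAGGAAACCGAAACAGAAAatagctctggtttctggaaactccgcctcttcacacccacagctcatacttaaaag
H2-Aa: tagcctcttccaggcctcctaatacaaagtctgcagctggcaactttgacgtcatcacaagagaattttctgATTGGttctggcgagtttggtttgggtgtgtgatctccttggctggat
H2-Eb1: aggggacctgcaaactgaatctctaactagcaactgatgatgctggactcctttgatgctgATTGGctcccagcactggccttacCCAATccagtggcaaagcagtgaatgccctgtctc

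The ISRE letters were found before the start of 16 of the 37 genes, in 38.1% of their 42 promoters against 2.98% of all 32851 promoters of the table. By group they were found in 9 of 15 type I interferon induced genes, 5 of 6 interferon-gamma GTPase genes, 1 of 3 in the group of Irf1 and the chemokines, 1 of 9 MHC class I genes (B2m) and 0 of 4 MHC class II genes. GAS letters stood in 16.7% of the promoters (7.02% of all) and Y box letters in 57.1% (33.8% of all). Y box letters lay before all 4 MHC class II genes with a sequence but were not particular to them. They also lay before 3 of 3 genes in the group of Irf1 and the chemokines and 7 of 9 MHC class I genes. Among type I interferon induced genes they lay before 7 of 15, and among the GTPase genes before 1 of 6. In Igtp and Irgm2 a GAS match lies just upstream of an ISRE match, 45 and 34 bases before the start in Igtp and 75 and 64 bases in Irgm2. Set 30 bases apart, the printed windows of these genes, both on chromosome 11, are identical at 87 of 90 bases. Isg15 holds 3 overlapping ISRE matches and Gbp3 2. A match is a description of letters, not a site of binding. The 14 measured genes with an ISRE match had a median difference of -0.09 and the 17 with a sequence but no match a median of -0.10.

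Across the 42 measured genes most differences were small and lay below 0. The difference was below 0 in 36 genes and above 0 in 6, with a median of -0.11, while over all 22180 genes 49.9% lay below 0 and the median was 0. None of the 42 passed the adjusted threshold (smallest adjusted p = 0.714, limma). Lower in Pfn2-/- liver with an unadjusted p under 0.05 were 5 genes, Igtp, Psmb10, Mx1, Cxcl9 and Gbp3, which is 11.9% of the genes against 2.62% of all genes in that direction. There were 0 higher, against 2.67% of all genes. The groups did not overlap in 5 genes, Igtp, Psmb10, Mx1, Rsad2 and Ifit2, all lower in Pfn2-/- liver, against 4.76% of all genes, and in 0 genes with Pfn2-/- higher, against 5.09%. Single arrays moved the count of 5, and the share of all genes lower moved too. The count was 3 without wild-type replicate 2 (2.10% of all genes), 3 without Pfn2-/- replicate 1 (2.22%) and 2 without Pfn2-/- replicate 3 (2.82%). It reached 7 without wild-type replicate 3 (3.71% of all genes) and 7 without Pfn2-/- replicate 2 (3.17%). Without both wild-type replicate 2 and Pfn2-/- replicate 3 there were 3 lower genes, Igtp, Irf7 and Tap2 (2.24% of all genes), and 1 higher, Nlrc5. Then 28 of 42 lay below 0. This pair was chosen after seeing the data. Wild-type replicate 2 held the highest value, and Pfn2-/- replicate 3 the lowest, in 19 of 42 genes each. Leaving the pair out therefore moves differences below 0 upward by the way it was chosen, here and below.

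**Figure D1:**
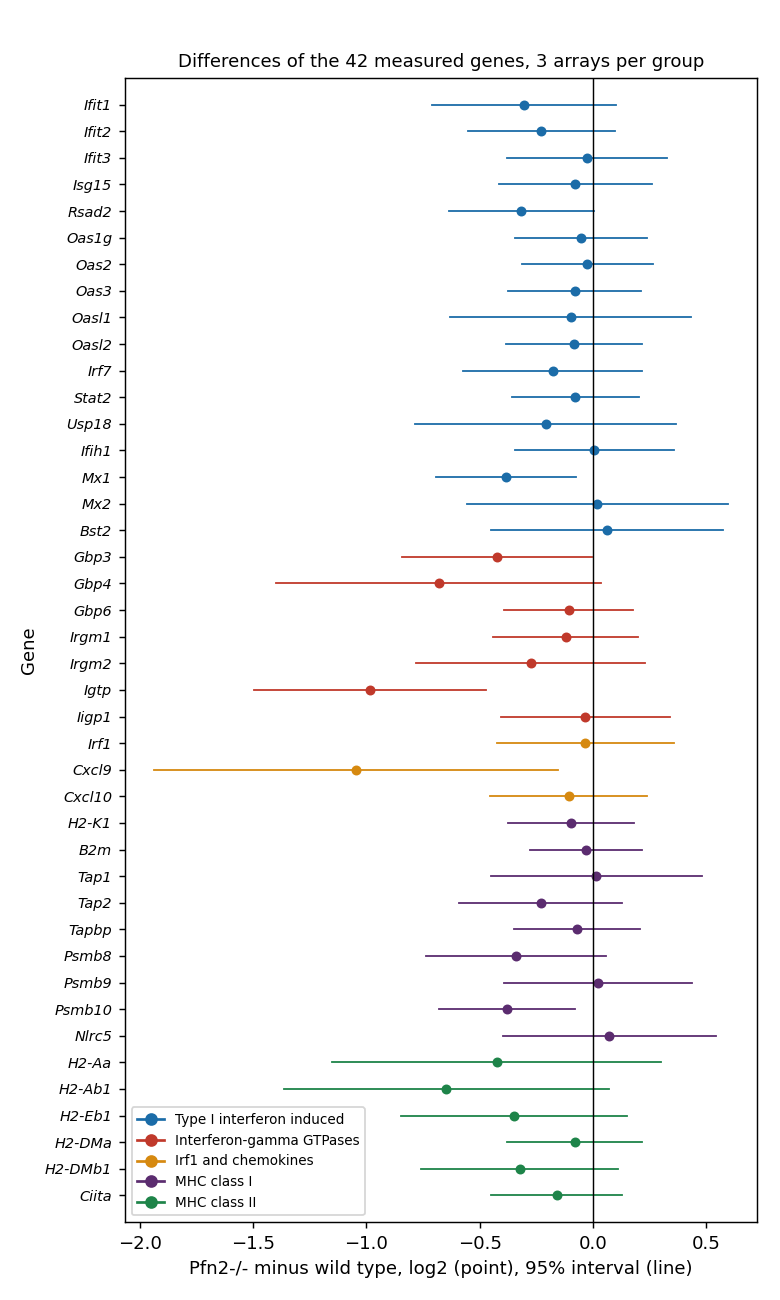
Differences of the 42 measured genes (x axis, Pfn2-/- minus wild type, log2) with 95% intervals as lines, genes on the y axis coloured by role group. The points of 36 genes lie left of 0, and the intervals of 5 genes, Igtp, Psmb10, Mx1, Cxcl9 and Gbp3, do not reach it.

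The arrays that were high and low differed between the role groups. Wild-type replicate 2 held the highest value in 19 of the 42 genes (16.2% of all genes) and wild-type replicate 3 in 13, while Pfn2-/- replicate 3 held the highest in 0 and the lowest in 19 (18.9% of all genes). All 7 GTPase genes and all 3 genes of the Irf1 and chemokine group peaked in wild-type replicate 2, as did 5 of 6 MHC class II genes. The type I interferon induced genes did not follow this: 9 of 17 peaked in wild-type replicate 3, 4 in Pfn2-/- replicate 2 and 1 in wild-type replicate 2. The members also varied more within a genotype than most genes, with a median residual SD of 0.23 against 0.17 over all genes, and 13 of 42 lay above the 90th percentile of all genes.

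**Figure D2:**
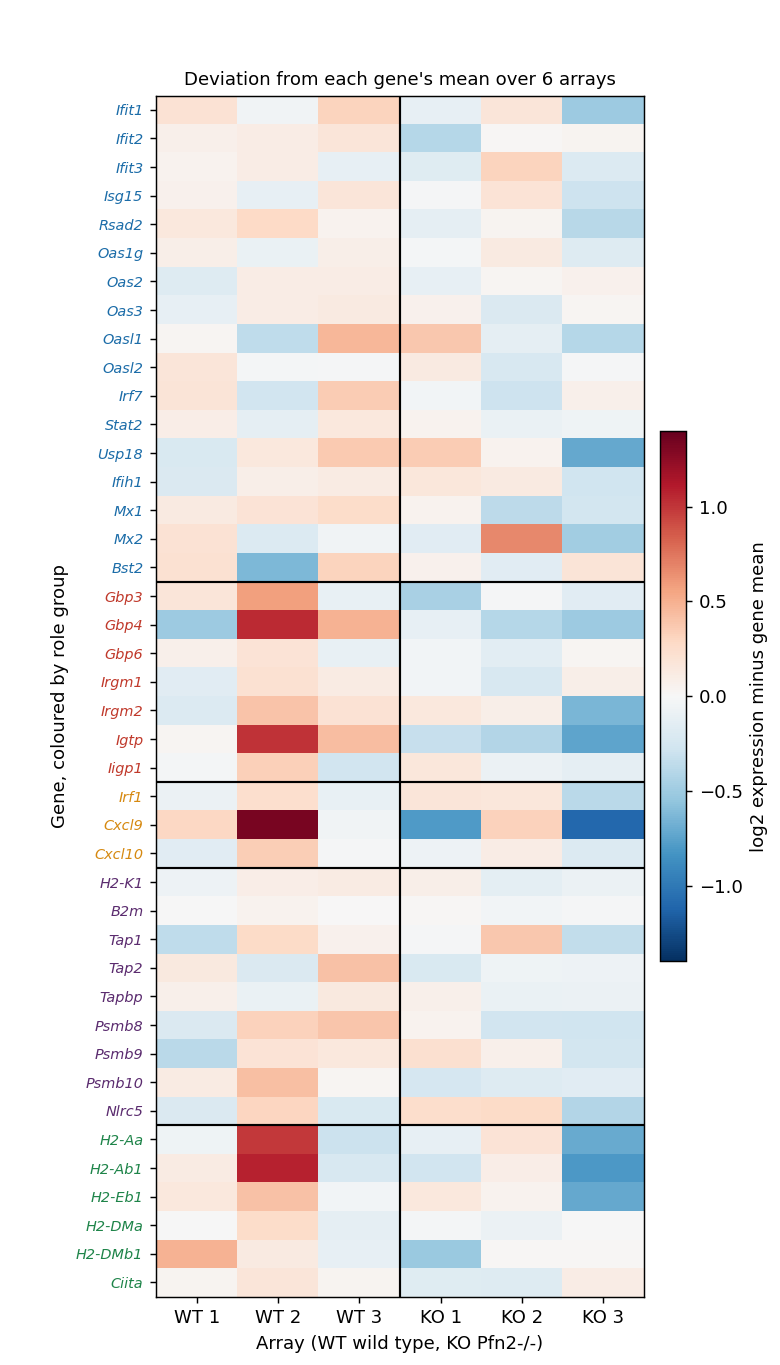
Deviation of each measured gene (rows, coloured and ruled by role group) from its own mean over the 6 arrays (columns), as log2 expression. Red cells gather in wild-type replicate 2 for the GTPase, Cxcl9 and MHC class II rows, and blue cells in Pfn2-/- replicate 3.

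Among the interferon-gamma GTPases, Igtp was about 1.98-fold lower in Pfn2-/- liver, and the other 6 measured genes had smaller differences. Igtp (Irgm3) encodes a GTPase that helps cells resist parasites inside vacuoles. It lay at 6.61, 7.60 and 7.02 in wild-type liver against 6.26, 6.17 and 5.85 in Pfn2-/- liver. The groups did not overlap, and wild-type replicate 2 was the highest. The difference was -0.98 (SE 0.23, 95% confidence interval -1.50 to -0.47, adjusted p = 0.714 by limma). Its unadjusted p was under 0.05 in all 17 alternatives run, with differences of -1.22 to -0.60 and adjusted p of 0.416 to 0.998. The smallest difference, -0.60, came without wild-type replicate 2 and Pfn2-/- replicate 3 together.

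Irgm2, whose printed promoter is nearly that of Igtp, did not separate the genotypes. It encodes a regulator of other immunity-related GTPases. Its values were 7.05, 7.64 and 7.45 in wild type and 7.39, 7.33 and 6.60 in Pfn2-/- liver, a difference of -0.27 (SE 0.23). The difference of Irgm1, a related regulator, was -0.12 (SE 0.14) and that of Iigp1, a GTPase that coats parasite vacuoles, -0.03 (SE 0.17, 95% confidence interval -0.41 to 0.34). Iigp1 turned above 0 (0.13) without wild-type replicate 2 and Irgm2 was at -0.02 without Pfn2-/- replicate 3.

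The guanylate-binding proteins attack membranes of pathogens. Gbp3 lay at 5.11, 5.51 and 4.83 in wild-type liver against 4.48, 4.92 and 4.78 in Pfn2-/- liver. The groups overlapped, and the difference was -0.42 (SE 0.19, adjusted p = 0.92 by limma), or -0.24 without wild-type replicate 2. Gbp4 lay at 4.66, 6.21 and 5.66 in wild type, a spread wider than in Pfn2-/- liver (5.06, 4.77 and 4.66). Its difference was -0.68 (SE 0.32), -0.33 without wild-type replicate 2 and -1.10 without wild-type replicate 1. Gbp6 was dim on every array (2.88 to 3.22). Across the 7 genes the differences ranged from -0.98 to -0.03 with a median of -0.27, which was -0.44 without wild-type replicate 1, -0.14 without wild-type replicate 2, -0.19 without Pfn2-/- replicate 3 and -0.115 without the last 2 of these together. Close paralogs among the Gbp, Irgm, Oas, Ifit and H2 genes can hybridise to the same probes, so single rows of these families are uncertain.

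Cxcl9, the interferon-gamma induced chemokine that attracts T cells, had the largest difference of the 42 genes in size and one of the widest spreads. It lay at 8.25, 9.29 and 7.91 in wild-type liver against 7.17, 8.28 and 6.86 in Pfn2-/- liver. Replicate 2 was the highest array in both genotypes, and Pfn2-/- replicate 2 lay above wild-type replicates 1 and 3, so the groups overlapped. The difference was -1.05 (SE 0.40, 95% confidence interval -1.94 to -0.15), or 2.07-fold lower, with an adjusted p of 0.915 by limma. It was -0.64 without wild-type replicate 2, a fit that keeps the high Pfn2-/- array of the same age. Without wild-type replicate 2 and Pfn2-/- replicate 3 together it was -0.36. Each Pfn2-/- array lay below the wild-type array of its own number and age, and the share of all genes with this order was not counted. With replicate number in the fit the adjusted p was 0.0623 by limma, although the replicate number was not taken as a pairing.

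Cxcl10, a chemokine for the same receptor, and Irf1, a transcription factor induced through the GAS element, had smaller differences. Cxcl10 lay at 5.02, 5.52 and 5.16 in wild-type liver against 5.11, 5.28 and 4.99 in Pfn2-/- liver (difference -0.11, SE 0.16). Irf1 lay at 6.15, 6.46 and 6.13 against 6.40, 6.39 and 5.85 (difference -0.03, SE 0.17, 95% confidence interval -0.42 to 0.36). Both signs turned without wild-type replicate 2, to 0.04 and 0.07, and Irf1 stood at 0.15 without Pfn2-/- replicate 3.

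**Figure D3:**
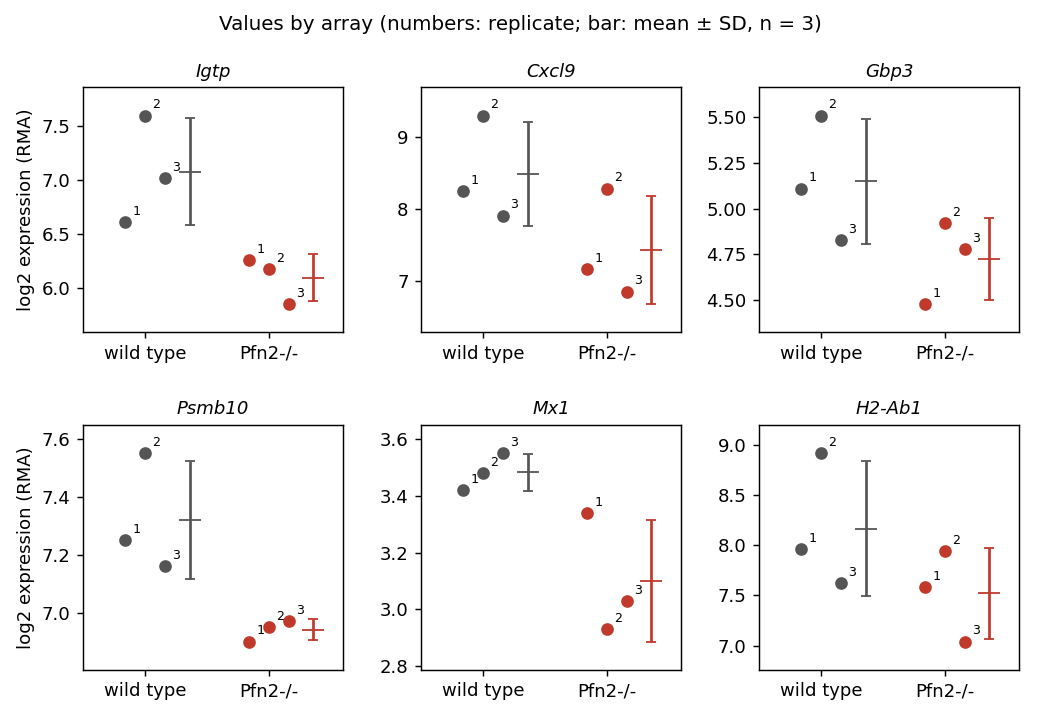
Log2 expression (y axis) of Igtp, Cxcl9, Gbp3, Psmb10, Mx1 and H2-Ab1 on each array, numbered by replicate, with mean ± SD (n = 3) beside each group. The axes differ between panels and do not start at 0. The groups are separate for Igtp, Psmb10 and Mx1 and overlap for Cxcl9, Gbp3 and H2-Ab1.

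The 17 measured type I interferon induced genes had a median difference of -0.08, with 14 below 0 and 3 above. The median was -0.16 without wild-type replicate 2 and -0.04 without wild-type replicate 3. Lower at an unadjusted p under 0.05 was 1 of the 17, Mx1 (2.62% of all genes), and 3 had groups that did not overlap, with Pfn2-/- lower (4.76% of all genes). Mx1 encodes an antiviral GTPase whose gene is known to be defective in C57BL/6 mice. It was dim, at 3.42, 3.48 and 3.55 in wild-type liver against 3.34, 2.93 and 3.03 in Pfn2-/- liver, below the lower quartile of all gene means (3.80). The difference was -0.38 (SE 0.14, adjusted p = 0.915 by limma). Mx2, its paralog, lay at 4.81 to 5.20 in wild-type liver against 4.84, 5.67 and 4.51 in Pfn2-/- liver, with the highest and the lowest array both in the knockout (difference 0.02, SE 0.26).

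Rsad2, which encodes the antiviral enzyme viperin, and the Ifit genes, whose proteins bind viral RNA, had differences of -0.32 to -0.03. Rsad2 lay at 6.02, 6.15 and 5.92 in wild-type liver against 5.75, 5.91 and 5.48 in Pfn2-/- liver. The groups did not overlap, although wild-type replicate 3 and Pfn2-/- replicate 2 nearly met, and the difference was -0.32 (SE 0.14, adjusted p = 0.92 by limma). Ifit1 lay at 6.01, 5.76 and 6.12 against 5.70, 5.98 and 5.30 (difference -0.30, SE 0.18), so its groups overlapped. Ifit2 lay at 4.67 to 4.77 in wild-type liver against 4.20, 4.62 and 4.64 in Pfn2-/- liver (difference -0.23, SE 0.14). Ifit3 differed by -0.03 (SE 0.16).

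The other type I genes differed by less than their errors or close to them. Isg15, a ubiquitin-like protein, lay at 5.37, 5.20 and 5.48 in wild-type liver against 5.30, 5.50 and 5.02 in Pfn2-/- liver (difference -0.08, SE 0.15), and Usp18, which removes it from proteins, differed by -0.21 (SE 0.26). Usp18 was lowest in Pfn2-/- replicate 3, at 5.32 against 5.83 to 6.41 on the other arrays. The 5 measured genes of the Oas and Oas-like family, named for enzymes that sense double-stranded RNA, differed by -0.10 (Oasl1) to -0.02 (Oas2). The transcription factors Irf7 and Stat2 differed by -0.18 (SE 0.18) and -0.08 (SE 0.13). The RNA sensor gene Ifih1 (MDA5) lay at 8.18, 8.47 and 8.50 in wild-type liver against 8.55, 8.51 and 8.11 in Pfn2-/- liver (difference 0.01, SE 0.16), and median centring turned it to -0.01. Bst2 (tetherin, which holds virus particles on cells) differed by 0.06 (SE 0.23) and by -0.23 without wild-type replicate 2, where it was lowest (8.13 against 8.60 to 9.07).

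In the MHC class I pathway, Psmb10 alone of the 9 genes had an unadjusted p under 0.05 (2.62% of all genes in the lower direction). The differences of the 9 genes ranged from -0.38 to 0.07. Psmb10, a catalytic subunit of the immunoproteasome, lay at 7.25, 7.55 and 7.16 in wild-type liver against 6.90, 6.95 and 6.97 in Pfn2-/- liver. The groups did not overlap. The difference was -0.38 (SE 0.13, 95% confidence interval -0.68 to -0.08, 1.30-fold lower, adjusted p = 0.914 by limma), and it was -0.46 to -0.27 when single arrays were left out. The other catalytic subunits did not separate the genotypes. Psmb8 lay at 6.10, 6.63 and 6.69 in wild-type liver against 6.35, 6.03 and 6.02 in Pfn2-/- liver (difference -0.34, SE 0.18), and Psmb9 differed by 0.02 (SE 0.19).

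The peptide transporter genes Tap1 and Tap2 differed by 0.02 (SE 0.21) and -0.23 (SE 0.16). Tap2 lay at 5.05, 4.72 and 5.33 in wild-type liver against 4.70, 4.86 and 4.85 in Pfn2-/- liver, so its groups overlapped. Tapbp, the tapasin that loads peptides, was the one measured gene of the set with a second row, and its rows differed by -0.07 and 0.18. H2-K1, a class I heavy chain, lay at 9.04, 9.21 and 9.23 in wild-type liver against 9.19, 8.97 and 9.03 in Pfn2-/- liver (difference -0.10, SE 0.12, 95% confidence interval -0.37 to 0.18). B2m, the light chain, lay at 12.94 to 13.03 on all 6 arrays (difference -0.03, SE 0.11). Nlrc5, the coactivator of class I genes, differed by 0.07 (SE 0.21). The median of the 9 class I genes was -0.07.

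All 6 measured MHC class II genes lay below 0, with a median of -0.33, and none had an unadjusted p under 0.05 in the fit on genotype alone. H2-Ab1, which encodes a class II beta chain, lay at 7.96, 8.92 and 7.62 in wild-type liver against 7.58, 7.94 and 7.04 in Pfn2-/- liver. Its alpha-chain partner H2-Aa lay at 6.36, 7.41 and 6.12 against 6.30, 6.61 and 5.71. In both genes replicate 2 was the highest array of its genotype and Pfn2-/- replicate 3 the lowest of all, and the groups overlapped. The differences were -0.65 (SE 0.32, adjusted p = 0.935 by limma) and -0.42 (SE 0.32, adjusted p = 0.956). Without wild-type replicate 2 they were -0.27 and -0.03, and without that array and Pfn2-/- replicate 3 together -0.03 and 0.21. These fits keep Pfn2-/- replicate 2, which has the age of wild-type replicate 2. In both genes each Pfn2-/- array lay below the wild-type array of its own number and age. This order was not shared by the other measured class II genes. In replicate 3, Pfn2-/- lay above wild type in H2-DMa (5.22 against 5.10), H2-DMb1 (3.96 against 3.82) and Ciita (5.64 against 5.57). In H2-Eb1 the arrays of replicate 1 were equal (6.25). The share of all genes with this order was not counted.

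H2-Eb1, a beta chain whose alpha partner is known not to be made in C57BL/6 mice, lay at 6.25, 6.52 and 6.07 in wild-type liver against 6.25, 6.16 and 5.39 in Pfn2-/- liver (difference -0.35, SE 0.22), and it was -0.07 without Pfn2-/- replicate 3. H2-DMa and H2-DMb1 encode the chains of the exchange factor that loads class II molecules. They differed by -0.08 (SE 0.13) and -0.32 (SE 0.19), with H2-DMb1 at 4.42, 4.06 and 3.82 against 3.42, 3.95 and 3.96. Ciita, which switches class II genes on, lay at 5.57 to 5.71 in wild-type liver against 5.37, 5.36 and 5.64 in Pfn2-/- liver (difference -0.16, SE 0.13). The class II median was -0.17 without wild-type replicate 2 and -0.21 without Pfn2-/- replicate 3. It was -0.01 without both, the pair chosen after seeing the data.

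**Figure D4:**
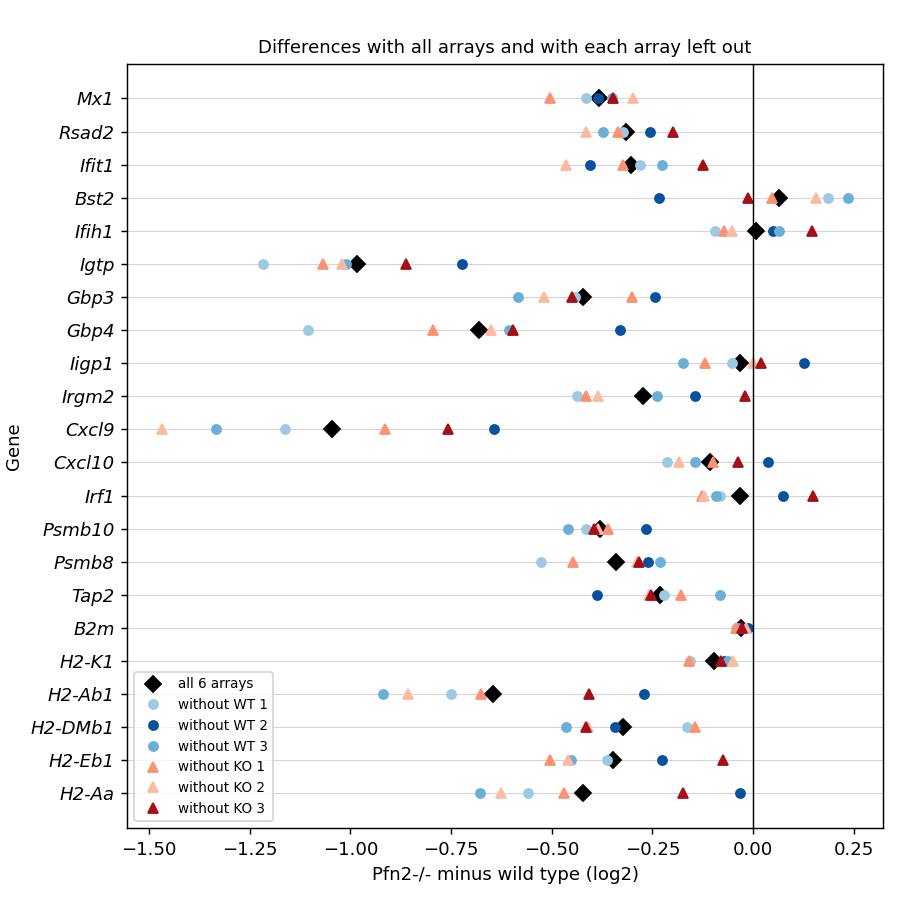
Differences (x axis, log2) of the 22 genes named by rule (y axis) with all 6 arrays (black diamonds) and with each array left out (circles, a wild-type array; triangles, a Pfn2-/- array). Dark blue circles, without wild-type replicate 2, lie nearest to 0 for Igtp, Cxcl9, Gbp3, Gbp4, Psmb10, H2-Ab1 and H2-Aa, while all points of Igtp lie at -0.72 or below.

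Of 83 further genes of these pathways 78 were measured, namely 15 for receptors and signalling, 5 ligands, 10 sensors, 28 further induced genes and 20 for antigen processing. None of the 78 passed the adjusted threshold. At an unadjusted p under 0.05, 2 were lower and 2 higher, against 2.62% and 2.67% of all genes, so the 4 of 78 lay near the background of 5.29%. The median difference of the 78 was -0.04, with 47 below 0 and 28 above. The count of 4 was 0 without wild-type replicate 2 and 8 without wild-type replicate 3, where 892 and 1560 of all 22180 genes were at that level. Ifng, the interferon gamma gene, was dim (3.20 to 3.70 on all arrays) and differed by 0.10 (SE 0.15). The receptor genes Ifnar1 and Ifngr1 differed by 0.07 (SE 0.13) and -0.30 (SE 0.18). Ifngr1 lay at 7.85, 8.11 and 7.43 in wild-type liver against 7.43, 7.70 and 7.37 in Pfn2-/- liver, with replicate 2 highest in each. Irf9, a DNA-binding partner of STAT2, differed by 0.00 (SE 0.15).

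The 4 further genes at an unadjusted p under 0.05 were Tlr4, Trim30a, H2-Q10 and Cgas. Tlr4, the endotoxin receptor gene, lay at 4.98, 5.41 and 5.20 in wild-type liver against 4.58, 5.04 and 4.65 in Pfn2-/- liver (difference -0.44, SE 0.16, adjusted p = 0.915 by limma). Trim30a, an interferon-induced ubiquitin ligase gene, lay at 4.08, 4.78 and 4.38 against 3.72, 4.03 and 4.11 (difference -0.46, SE 0.19). H2-Q10, which encodes a class I molecule secreted by liver, lay at 9.10, 8.92 and 8.48 against 9.34, 9.10 and 9.22 (difference 0.39, SE 0.17). Cgas, the sensor of cytosolic DNA, was dim, at 3.43 to 3.59 in wild-type liver against 3.69 to 3.92 in Pfn2-/- liver (difference 0.28, SE 0.12).

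Kupffer, B and T and NK cell markers were high in wild-type replicate 2, as were the GTPase, Cxcl9 and class II genes, while dendritic cell and monocyte and neutrophil markers were less so. Mean deviations from gene means in that array were 0.54 for the GTPases, 0.63 for Irf1 and the chemokines, 0.50 for class II and 0.15 for class I, but -0.04 for type I genes. In the same array the 10 Kupffer cell markers stood at 0.47, the 6 B cell markers at 0.43, the 12 T and NK cell markers at 0.39 and the 7 endothelial markers at 0.29, against 0.11 for 8 hepatocyte markers. The endothelial value leaned on Lyve1, the marker of that list that varied most (9.23 there, 6.72 to 9.07 on the other arrays). The endothelial markers Kdr and Clec4g were not highest there (8.14 and 8.86, against up to 8.52 and 9.06 elsewhere). The 7 dendritic cell markers stood at 0.12 and the 8 monocyte and neutrophil markers at 0.14, near the hepatocyte value. Each of these marker lists, hepatocytes included, had its highest mean in that array. Over the other 5 arrays these lists ranged from -0.23 to -0.0033 (Kupffer), -0.34 to 0.10 (B cell), -0.23 to 0.11 (T and NK cell), -0.16 to 0.14 (endothelium) and -0.10 to 0.04 (hepatocyte). The Kupffer markers Adgre1 and Vsig4 lay at 7.21 and 9.32 in wild-type replicate 2, against 6.03 to 6.62 and 8.43 to 8.93 on the other arrays. In Pfn2-/- replicate 3, where class II stood at -0.35 and type I genes at -0.20, B cell markers stood at -0.34 and Kupffer markers at -0.11. The part of these markers in the differences was not tested. In whole tissue, fewer cells of a type and less RNA per cell cannot be told apart.

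**Figure D5:**
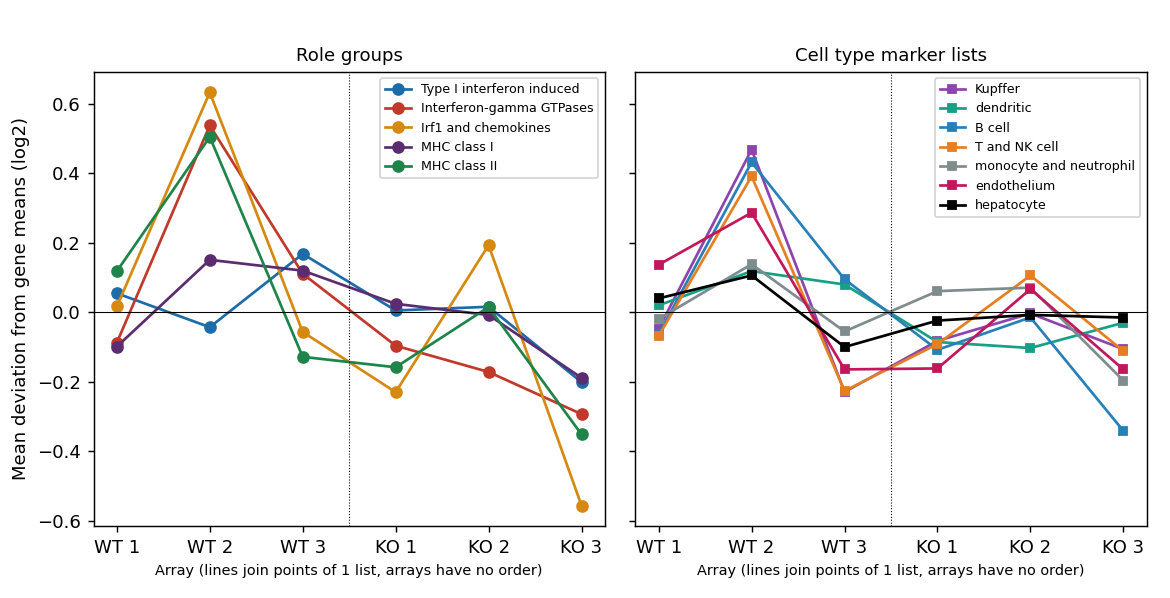
Mean deviation from gene means (y axis, log2) on each array (x axis) for the 5 role groups (left) and 7 cell type marker lists (right). Every role group except type I, and all 7 marker lists, are highest in wild-type replicate 2. The value there is 0.50 to 0.63 for GTPases, Irf1 and chemokines and class II genes, and 0.15 for class I. It is 0.39 to 0.47 for Kupffer, B and T and NK cell markers and 0.11 to 0.29 for the other marker lists.

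Between the genotypes, 2 of 6 measured B cell markers and 2 of 7 dendritic cell markers had an unadjusted p under 0.05, all lower in Pfn2-/- liver (2.62% of all genes in that direction), with 0 past the adjusted threshold. Beside these, the stellate cell marker Col3a1 was lower (-0.30) and the cholangiocyte marker Sox9 higher (0.58) at that level. Jchain, the joining chain of secreted antibodies, lay at 5.13, 5.53 and 4.96 in wild-type liver against 4.21, 4.93 and 3.98 in Pfn2-/- liver (difference -0.83, SE 0.24, adjusted p = 0.789 by limma), and Ighm, the IgM heavy chain, differed by -0.52. The dendritic cell markers Xcr1 and Itgax differed by -0.42 and -0.36, and the other 5 by -0.19 (Flt3), -0.15 (Zbtb46), -0.04 (Cd209a), 0.02 (Siglech) and 0.12 (Ccr7). Of the lists, B cell and dendritic cell markers had medians of -0.27 and -0.15, Kupffer markers -0.13, monocyte and neutrophil markers -0.10, stellate cell markers -0.09, endothelial markers -0.07, T and NK cell markers -0.03, hepatocyte markers -0.02 and cholangiocyte markers 0.03. Without wild-type replicate 2 the medians were 0.06 for Kupffer, 0.11 for T and NK cell, 0.05 for hepatocyte, -0.01 for dendritic cell and -0.15 for B cell markers. Beside Jchain and Ighm, the measured B cell markers Cd79a, Cd22, Ms4a1 and Cd79b differed by -0.39, -0.15, -0.0033 and 0.03. Gzma, Gzmb and S100a8 had means below the lower quartile of all genes. The dendritic cell markers Xcr1, Itgax, Flt3 and Siglech had means below the median of all gene means (4.72). With a filter at that median, 3 dendritic cell markers were left, with a median difference of -0.04. The same filter left 2 B cell markers, Jchain and Ighm, with a median of -0.675. The part of these markers in the class II values was not tested.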

How the data were processed

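Total RNA of 6 snap-frozen livers was hybridised to Affymetrix arrays after biotin labelling, per the labels' protocols. The authors deposited log2 values made with RMA, per the submitters' processing notes, which also name limma. RMA normalizes arrays to each other and compresses differences of dim rows. Versions, probe set level and build were not given in these sources. Of 34390 rows, 23521 named 1 gene, 1814 several and 9055 none. The brightest row per gene was kept, blind to group. All 22180 genes were fitted with limma 3.58.1 in R 4.3.3 (lmFit, eBayes, genotype only, two-sided) and adjusted by Benjamini-Hochberg, and the fit was tested on simulated data. Genes at an unadjusted p under 0.05 are described, not called. Differences are named for members at that level, filled to 3 per group by smallest p, for the 2 brightest per group, and for fixed or such pathway genes. Ifit2, Isg15, Psmb9, Tap1 and others are given as values of remaining members. Members, groups and lists were chosen with earlier results of these data known. No other columns were used.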

Additional observations from a re-analysis of the deposited data

How the results depend on the processing

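No gene of the set passed the adjusted threshold under any of the 17 alternatives. The count of 5 lower genes was 3 with a filter at the lower quartile (2.98% of all genes lower) and 3 with a filter at the median (3.64%). The count was 2 to 7 when single arrays were left out (2.06% to 3.71% of all genes). Without wild-type replicate 2 and Pfn2-/- replicate 3 together, an alternative chosen after seeing the data, it was 3 (2.24% of all genes), with 1 gene higher. All genes past the adjusted threshold numbered 2 with array weights, 1 without that pair of arrays and 0 to 6 with single arrays left out. All genes at an unadjusted p under 0.05 numbered 682 with the filter at the median, which tests fewer genes, against 1174. The 4 pathway genes became 2 with median centring, 2 with the filter at the median, 0 without the pair of arrays and 0 to 8 with single arrays left out. The GTPase median was -0.44 to -0.14 with single arrays left out and -0.115 without the pair, where the class II median was -0.01. Without the pair the sign turned for Bst2 (-0.31), Iigp1 (0.18), Irgm2 (0.11), Cxcl10 (0.105), Irf1 (0.255), H2-Eb1 (0.045) and H2-Aa (0.215), as it did for Irf1 with array weights (0.0107) and Ifih1 with median centring (-0.0133), which moved the median of all genes to -0.02. With single arrays left out, ranges across 0 were -0.23 to 0.24 for Bst2, -0.095 to 0.15 for Ifih1, -0.17 to 0.13 for Iigp1, -0.21 to 0.0367 for Cxcl10, -0.13 to 0.15 for Irf1, -0.0133 to 0.12 for Ifnar1 and -0.0117 to 0.19 for Ifng. The median of Irf1 and the chemokines also turned, to 0.0367 without wild-type replicate 2 and 0.105 without the pair. Of the 36 genes below 0, 20 stayed there in every alternative that tested them. The cause was not tested. Under the replicate block, 8 genes of the set were lower at an unadjusted p under 0.05 (2.98% of all genes). Those added to the 5 were Rsad2, H2-Aa and H2-Ab1, with adjusted p of 0.856, 0.856 and 0.554 by limma. Of all genes, 7 passed the adjusted threshold under that block. The adjusted p of Cxcl9 was 0.0623 by limma there, against 0.915. Deviations of same-numbered arrays correlated at -0.082, 0.155 and 0.02, and only the arrays of number 2 correlated best with their own number. The largest correlation, 0.181, was between wild-type replicate 3 and Pfn2-/- replicate 1. The replicate block was therefore not taken as a pairing. Replicate number also gives the age in both genotypes. These correlations run over all genes, so they do not show whether single genes follow age. The number of arrays limits the precision.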
